A study of Mus musculus with 12 samples.

Results

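The transcription factors followed here give the ventricular zone its regional identity: they are switched on in different walls of the developing forebrain ventricle, and some stay on in the adult neural stem cells (NSCs) that descend from each wall. The 9 factors were chosen by name, with earlier results of these data known: Nkx2-1, Nkx6-2, Lhx6 and Lhx8 for the ventral wall, Gsx1, Gsx2 and Isl1 for the lateral wall, Emx1 for the dorsal wall, and Zic1, for which the list names no wall. Of these 9, 8 had counts among the 37991 genes of the table, and Lhx8 was not analysed here. The filter on low counts was passed by 7 of the 8, among the 17623 genes tested, and Gsx2 stayed below it.

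RNA was sequenced from GFP+ NSCs sorted from the subventricular zone (SVZ), the stem cell layer beside the lateral ventricle, in 12 libraries of 4 groups with 3 libraries each. The study asked which genes differ with loss of Gli1, an effector of Hedgehog signalling, in NSCs responding to demyelination and at rest. Gli1Null NSCs came from Gli1CreERT2/CreERT2;RCEfx/fx mice and Gli1Het NSCs from Gli1CreERT2/+;RCEfx/fx mice, all on C57BL/6. Within each genotype, one group was fed 0.2% cuprizone, a copper chelator that kills mature oligodendrocytes, for 3 weeks, and the control group stayed on normal chow. Mice of all groups received tamoxifen at 5 mg per dose from an age of 10 weeks, and the diets parted a week after the last dose. The CreERT2 knocked into Gli1 replaces a working copy, so Gli1Het NSCs carry 1 intact allele and not a wild-type pair, and Gli1Null mice lacked Gli1 in the whole animal. The GFP label is kept by the progeny of the labelled cells, so the sorted cells are the Gli1 lineage and not stem cells alone. Each library pooled the SVZ of 2 mice, 1 male and 1 female, so the p-values below measure the spread between pools.

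In the embryo, Hedgehog signalling from the ventral midline turns on Nkx2-1 in the medial ganglionic eminence (MGE), and Nkx2-1 in turn activates Lhx6 and Lhx8, which direct the progeny into cortical interneurons and cholinergic neurons. Gsx1 and Gsx2 specify the lateral ganglionic eminence, where Isl1 marks neurons that will join the striatum, while Emx1 belongs to the dorsal, cortical wall and Zic1 to the septum and medial wall. In the adult SVZ, NSCs of these walls send different kinds of interneuron to the olfactory bulb, and the Gli1 lineage is richest ventrally.

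The promoters of the 3 factors that fell on cuprizone and of Gsx1, which did not, are shown so that the genes can be placed. They are RefSeq sequences of build GRCm38.p6, read 5′ to 3′ on the strand of the gene, 250 bases before and 50 bases from the annotated transcription start, with those 50 bases in capitals. Lhx6 (chr2:36105359-36105658, minus strand, the most upstream of its 3 windows), Isl1 (chr13:116309639-116309938, minus), Zic1 (chr9:91365719-91366018, minus) and Gsx1 (chr5:147188446-147188745, plus) read as follows.
Lhx6: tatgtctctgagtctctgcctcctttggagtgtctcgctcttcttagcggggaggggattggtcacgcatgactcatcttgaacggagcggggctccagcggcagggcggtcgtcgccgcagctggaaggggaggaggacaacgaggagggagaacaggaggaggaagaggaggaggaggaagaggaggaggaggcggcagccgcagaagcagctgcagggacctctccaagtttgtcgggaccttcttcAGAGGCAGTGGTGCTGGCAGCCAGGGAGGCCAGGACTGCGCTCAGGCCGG
Isl1: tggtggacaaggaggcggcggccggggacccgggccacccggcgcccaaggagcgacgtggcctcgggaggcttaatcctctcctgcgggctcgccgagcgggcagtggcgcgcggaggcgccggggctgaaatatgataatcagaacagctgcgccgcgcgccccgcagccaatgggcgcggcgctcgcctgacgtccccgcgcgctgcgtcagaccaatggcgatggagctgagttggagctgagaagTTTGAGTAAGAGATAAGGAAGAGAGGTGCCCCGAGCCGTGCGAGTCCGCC
Zic1: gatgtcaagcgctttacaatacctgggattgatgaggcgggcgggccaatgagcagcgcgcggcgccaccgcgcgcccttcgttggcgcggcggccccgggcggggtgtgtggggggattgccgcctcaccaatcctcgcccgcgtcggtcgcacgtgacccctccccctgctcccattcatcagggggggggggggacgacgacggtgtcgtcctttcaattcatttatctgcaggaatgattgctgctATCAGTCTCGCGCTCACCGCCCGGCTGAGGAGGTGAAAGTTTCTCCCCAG
Gsx1: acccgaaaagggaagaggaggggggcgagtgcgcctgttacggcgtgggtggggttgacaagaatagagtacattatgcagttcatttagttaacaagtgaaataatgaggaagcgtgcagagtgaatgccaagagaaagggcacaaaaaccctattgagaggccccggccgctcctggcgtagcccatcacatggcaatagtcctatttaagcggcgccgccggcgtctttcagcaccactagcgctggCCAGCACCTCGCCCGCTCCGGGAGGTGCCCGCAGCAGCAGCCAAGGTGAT
The GC content was 63.3% in the Lhx6 window, 69.0% in Isl1, 65.3% in Zic1 and 57.0% in Gsx1, against a median of 52.7% over all 32851 promoter windows. The GLI motif GACCACCCA was in 0 of the 11 windows of the 9 factors and in 0.253% of all windows, and the homeodomain motif TAATTA, searched on both strands likewise, was in 0 of 11 and in 5.29%. These letters are not in these windows, and no more is read from that.

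The libraries held 13752801 to 32468063 counts in genes. NSC markers such as Slc1a3, Gfap, Sox2 and Nes were present in every library, and the summed level of the 14 genes of the NSC and astrocyte list was 8745 to 10400 CPM in Gli1Null cuprizone, 5985 to 6881 in Gli1Null control, 9021 to 11930 in Gli1Het cuprizone and 4715 to 7935 in Gli1Het control libraries (CPM, counts scaled to the library's total in genes). Gli1 itself was at 0.469 to 0.739 CPM in Gli1Null cuprizone and 0.293 to 0.389 CPM in Gli1Null control NSCs. It was at 21.5, 0.837 and 3.84 CPM in Gli1Het cuprizone and at 8.65 to 18.3 CPM in Gli1Het control NSCs. The library labelled Gli1Het cuprizone replicate 2 thus had Gli1 close to the Gli1Null level, and it also stood apart from its group in Gsx1, Zic1 and neuroblast genes. The diet effects below that change with it are given with and without it.

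Cuprizone lowered Lhx6 and Isl1 in NSCs of both genotypes. With all libraries, the fall of Zic1 passed in Gli1Null NSCs and did not pass in Gli1Het NSCs. Both of these Zic1 results changed when single libraries were left out, and the difference between its diet effects did not pass. Lhx6 fell by 4.81 on the log2 scale in Gli1Null NSCs and by 5.26 in Gli1Het NSCs, to at most 0.438 CPM in the 6 cuprizone libraries. Nkx2-1, Nkx6-2 and Emx1 did not pass the test in any comparison, and no factor passed between the genotypes, where Gli1 itself did not pass either. In Gli1Null NSCs 3 of the 7 factors tested passed, all lower, where 3.62% of all genes tested passed in either direction and 0.25% (44 genes) were lower. These Gli1Null shares rest on a spread shared with the Gli1Het libraries. As given below, the share lower was larger without the library labelled Gli1Het cuprizone replicate 2, and more genes passed with the Gli1Null groups fitted alone. In Gli1Het NSCs 2 of the 7 passed, both lower, where 34.0% of all genes passed and 15.3% were lower, so the Gli1Het count stands against a large background. In both genotypes Lhx6 and Isl1 passed the filter on low counts through their control libraries, which favours calls in the lower direction. The factors were also chosen with earlier results of these data known, so these shares are a background and not a test of the factors as a set.

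**Figure D1:**
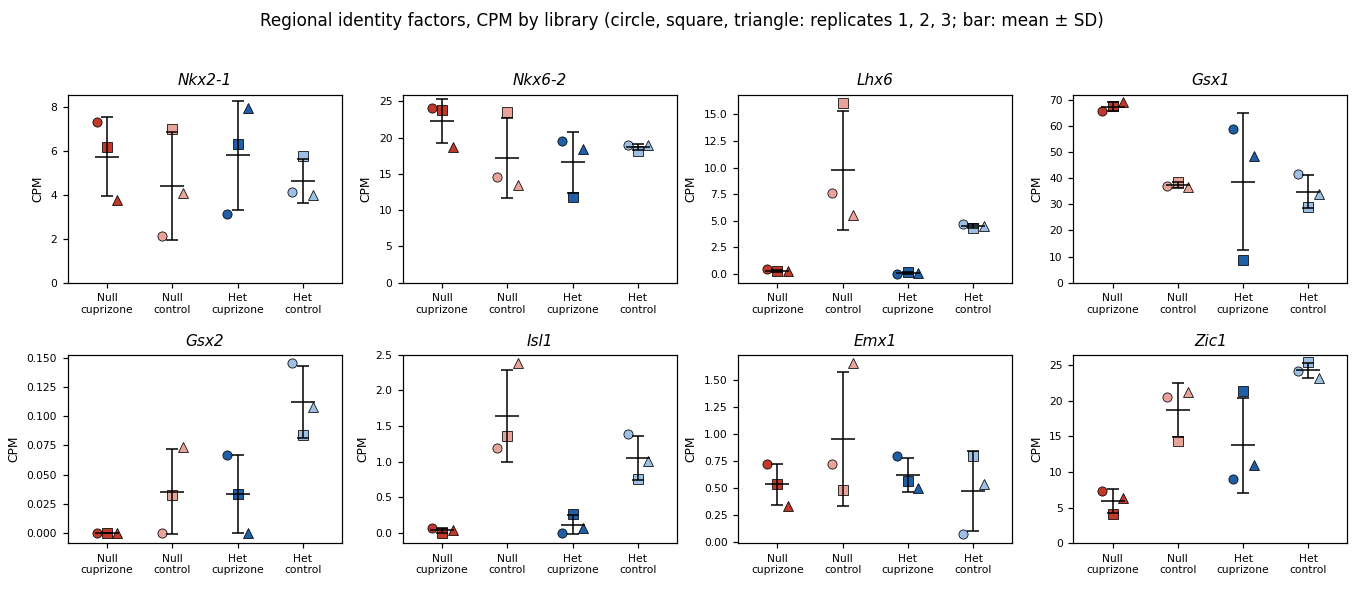
CPM of 8 regional identity factors in each library, with cuprizone drawn left of the control diet in each genotype; points are libraries (circle, square and triangle for replicates 1, 2 and 3) and bars are the mean ± SD of 3 libraries. Lhx6 and Isl1 lie near 0 in all 6 cuprizone libraries, and Gsx1 is at 8.87 CPM in Gli1Het cuprizone replicate 2.

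Lhx6, the LIM homeodomain factor that MGE-derived neurons keep after they leave the ventral wall, lies at chr2:36081953-36105408 (mm10, minus strand). It was at 0.438, 0.289 and 0.277 CPM in Gli1Null cuprizone NSCs, against 7.60, 16.1 and 5.57 CPM in Gli1Null control NSCs. It had 0, 5 and 2 counts (0, 0.167 and 0.142 CPM) in Gli1Het cuprizone NSCs, against 4.73, 4.37 and 4.51 CPM in Gli1Het control NSCs. Every cuprizone library lay below every control library of its genotype, as for 21.9% of all genes tested in Gli1Null and 20.2% in Gli1Het NSCs, and the lowest control value was 4.37 CPM. The fold change was −4.81 on the log2 scale in Gli1Null NSCs (SE 0.51, adjusted p = 0.000455, edgeR) and −5.26 in Gli1Het NSCs (SE 0.60, adjusted p = 0.000392). Without the library labelled Gli1Het cuprizone replicate 2, the Gli1Het value was −5.95 (adjusted p = 0.000492). Among the genes called lower, Lhx6 ranked 2 of 44 by the size of the fold change in Gli1Null and 9 of 2691 in Gli1Het NSCs. The ratio of summed levels, cuprizone over control, was 0.0339 in Gli1Null (95% counting interval 0.0229 to 0.0485) and 0.0264 in Gli1Het NSCs (0.0105 to 0.0550). In bulk libraries, fewer Lhx6-expressing cells and less Lhx6 RNA per cell cannot be told apart.

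Lhx6 was also higher in all 3 Gli1Null control than in all 3 Gli1Het control libraries, a pattern that 3.46% of all genes tested share. The log2 fold change was 1.12 (SE 0.42, unadjusted p = 0.0200, adjusted p = 1, edgeR), so it did not pass, and replicate 2 at 16.1 CPM carried the largest part of the Gli1Null control mean. On cuprizone the Gli1Null libraries again lay above the Gli1Het libraries, as for 10.8% of all genes, at a log2 fold change of 1.57 (SE 0.67, adjusted p = 0.179). The diet effect on Lhx6 differed between the genotypes by 0.45 (SE 0.76, adjusted p = 0.818).

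Nkx2-1, the homeodomain factor above Lhx6 in the MGE, kept overlapping levels where Lhx6 fell. It was at 7.32, 6.17 and 3.76 CPM in Gli1Null cuprizone NSCs, against 2.14, 7.01 and 4.10 CPM in Gli1Null control NSCs. It was at 3.12, 6.33 and 7.97 CPM in Gli1Het cuprizone NSCs, against 4.15, 5.79 and 4.00 CPM in Gli1Het control NSCs. The groups overlapped on either diet and in either genotype. Its log2 fold change on cuprizone was 0.41 (SE 0.44, adjusted p = 0.653) in Gli1Null and 0.31 (SE 0.44, adjusted p = 0.609) in Gli1Het NSCs. The gene lies at chr12:56531958-56536908.

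Nkx6-2, a homeodomain repressor of the ventral neural tube that mature oligodendrocytes also express, lies at chr7:139579376-139582797 and shares 246 exon bases with the antisense gene Inpp5a. It was at 24.1, 23.8 and 18.7 CPM in Gli1Null cuprizone NSCs, against 14.6, 23.6 and 13.5 CPM in Gli1Null control NSCs. It was at 19.5, 11.8 and 18.4 CPM in Gli1Het cuprizone NSCs, against 18.9, 18.2 and 19.0 CPM in Gli1Het control NSCs. The 3 Gli1Het control libraries agreed within 1 CPM, while the other groups spread more widely and overlapped them. The log2 fold change on cuprizone was 0.40 (SE 0.24, adjusted p = 0.409) in Gli1Null and −0.19 (SE 0.24, adjusted p = 0.566) in Gli1Het NSCs.

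Isl1, the LIM homeodomain factor of striatal and cholinergic neuron precursors, lies at chr13:116298281-116309689. It had 2, 0 and 1 counts (0.0626, 0 and 0.0308 CPM) in Gli1Null cuprizone NSCs, against 1.19, 1.36 and 2.38 CPM in Gli1Null control NSCs. It had 0, 8 and 1 counts (0, 0.268 and 0.0711 CPM) in Gli1Het cuprizone NSCs, against 1.38, 0.756 and 1.01 CPM in Gli1Het control NSCs. Isl1 was thus a low transcript on the control diet and nearly undetected on cuprizone, and every cuprizone library lay below every control library, as for 21.9% of all genes in Gli1Null and 20.2% in Gli1Het NSCs. Summed over libraries, 3 counts stood against 143 in Gli1Null NSCs, a ratio of 0.0202 (95% counting interval 0.00411 to 0.0601), and 9 against 65 in Gli1Het NSCs, a ratio of 0.153 (0.0671 to 0.309). The fitted log2 fold change was −5.44 (SE 0.83, adjusted p = 0.00591, edgeR) in Gli1Null and −2.89 (SE 0.74, adjusted p = 0.0142) in Gli1Het NSCs. It was −4.73 (adjusted p = 0.00534) in Gli1Het NSCs without the library labelled Gli1Het cuprizone replicate 2, which held 8 of the 9 counts, and −6.24 (adjusted p = 0.0309) in Gli1Null NSCs without Gli1Null cuprizone replicate 1. With the Gli1Het groups fitted alone, the Gli1Het change did not pass (−2.90, adjusted p = 0.0685). No cuprizone library reached the level the filter asks for, 0.361 CPM, and for Lhx6 1 of the 6 did, so both factors passed the filter through their control libraries.

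The diet effect on Isl1, Gli1Null minus Gli1Het, was −2.55 on the log2 scale (SE 1.17, unadjusted p = 0.0499, adjusted p = 0.544), which did not pass, and −0.71 (adjusted p = 0.949) without the library labelled Gli1Het cuprizone replicate 2. In Gli1Null over Gli1Het NSCs its log2 fold change was −1.87 (SE 1.00, adjusted p = 0.258) on cuprizone and 0.68 (SE 0.60, adjusted p = 1) on the control diet.

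Zic1, a zinc-finger factor of the septal and medial wall that holds progenitors back from differentiation, lies at chr9:91358058-91365810 and shares 60 exon bases with Zic4 on the other strand. It was at 7.38, 4.04 and 6.31 CPM in Gli1Null cuprizone NSCs, against 20.5, 14.4 and 21.2 CPM in Gli1Null control NSCs. It was at 8.96, 21.4 and 10.95 CPM in Gli1Het cuprizone NSCs, against 24.2, 25.4 and 23.2 CPM in Gli1Het control NSCs. Every cuprizone library lay below every control library in both genotypes, as for 21.9% of all genes in Gli1Null and 20.2% in Gli1Het NSCs, but the library labelled Gli1Het cuprizone replicate 2 was close to its controls. The log2 fold change was −1.63 (SE 0.32, adjusted p = 0.0205, edgeR) in Gli1Null NSCs, the rank being 10 of the 44 genes called lower. This call was lost without Gli1Null control replicate 1 or 3 or without Gli1Null cuprizone replicate 1, 2 or 3, at adjusted p values of 0.0560 to 0.0789 and fold changes of −1.82 to −1.40. In Gli1Het NSCs the change was −0.82 (SE 0.32, adjusted p = 0.0623), which did not pass, and −1.29 (adjusted p = 0.00501) without the library labelled Gli1Het cuprizone replicate 2.

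On cuprizone, all 3 Gli1Null libraries held less Zic1 than all 3 Gli1Het libraries, as did 16.8% of all genes tested in that comparison. The log2 fold change was −1.16 (SE 0.32, unadjusted p = 0.00365, adjusted p = 0.0835, edgeR). It passed with DESeq2 (−1.17, adjusted p = 0.0108) and without Gli1Het cuprizone replicate 1 (−1.36, adjusted p = 0.00821), and it was −0.68 (adjusted p = 0.222) without the library labelled Gli1Het cuprizone replicate 2. On the control diet the Gli1Null libraries again lay below, as for 4.26% of all genes, by a smaller log2 fold change of −0.36 (SE 0.31, adjusted p = 1). The diet effect on Zic1 differed by −0.80 between the genotypes (SE 0.45, adjusted p = 0.559).

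Gsx1, the homeodomain factor that drives lateral progenitors on to become neuronal precursors, had the highest group means of the factors and lies at chr5:147188696-147190947. It was at 65.8, 67.5 and 69.0 CPM in Gli1Null cuprizone NSCs, against 36.9, 38.6 and 36.8 CPM in Gli1Null control NSCs. It was at 58.7, 8.87 and 48.4 CPM in Gli1Het cuprizone NSCs, against 41.7, 28.8 and 34.2 CPM in Gli1Het control NSCs. The Gli1Null libraries of each diet were tight and far apart, while one Gli1Het cuprizone library was lower than every other library of the series. With the spread shared over all 12 libraries, the log2 fold change of 0.88 in Gli1Null NSCs (SE 0.46, adjusted p = 0.342) did not pass, and cuprizone libraries were higher throughout, as for 19.8% of all genes. It passed with the Gli1Null groups fitted alone (adjusted p = 0.000116) and without the library labelled Gli1Het cuprizone replicate 2 (0.88, adjusted p = 0.00220). In Gli1Het NSCs the change was 0.13 (SE 0.46, adjusted p = 0.842), and 0.61 (adjusted p = 0.0104) without that library. Between the genotypes on cuprizone Gsx1 was higher in all 3 Gli1Null libraries, as for 10.8% of all genes, at a log2 fold change of 0.87 (SE 0.46, adjusted p = 0.256), and of 0.39 (adjusted p = 0.222) without that library.

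Gsx2, the other Gsx factor of the lateral eminence, was at the limit of detection. It had 0, 0 and 0 counts in Gli1Null cuprizone, against 0, 1 and 2 counts in Gli1Null control NSCs. It had 1, 1 and 0 counts in Gli1Het cuprizone, against 2, 2 and 3 counts in Gli1Het control NSCs. The 0 counts in Gli1Null cuprizone allow up to 0.0326 CPM over the group (3 counts), counting error only, and no difference was detectable at this depth. The gene lies at chr5:75075601-75077893.

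Emx1, the cortical progenitor factor, was low and variable. It was at 0.720, 0.541 and 0.339 CPM in Gli1Null cuprizone NSCs, against 0.724, 0.487 and 1.65 CPM in Gli1Null control NSCs. It was at 0.796, 0.569 and 0.498 CPM in Gli1Het cuprizone NSCs, against 0.0727, 0.798 and 0.541 CPM in Gli1Het control NSCs. All groups overlapped, and 1 control library of each genotype stood apart from the rest of its group. The log2 fold change on cuprizone was −0.80 (SE 0.63, adjusted p = 0.536) in Gli1Null and 0.31 (SE 0.67, adjusted p = 0.741) in Gli1Het NSCs. The gene lies at chr6:85187438-85204462.

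**Figure D2:**
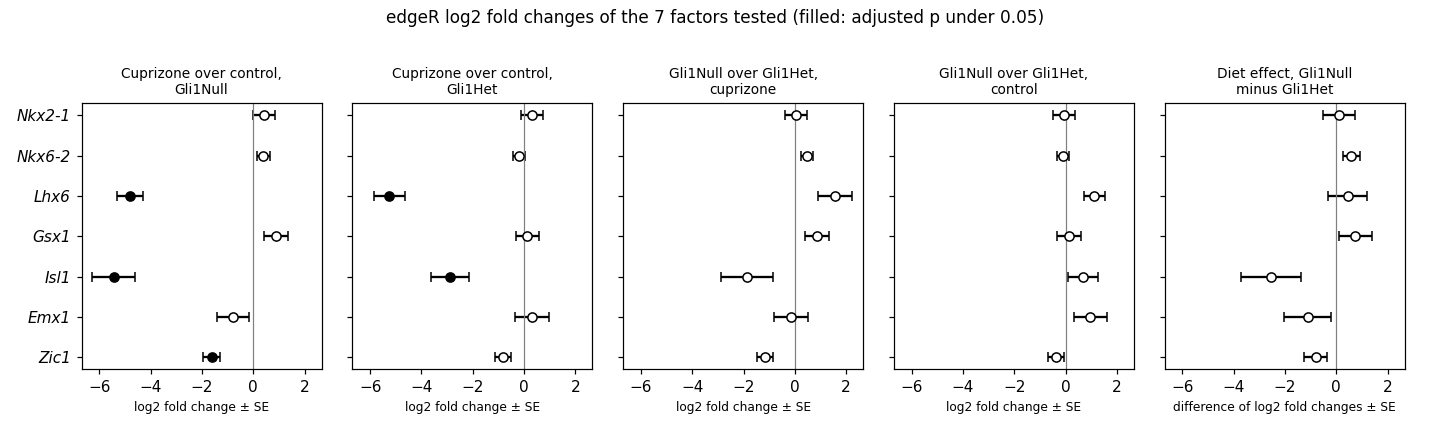
log2 fold changes ± SE (horizontal axes) of the 7 factors tested, from 1 edgeR model of the 12 libraries, for the cuprizone over control diet in each genotype, Gli1Null over Gli1Het on each diet, and the difference of the diet effects; filled points passed at an adjusted p under 0.05. Lhx6 (−4.81 and −5.26) and Isl1 (−5.44 and −2.89) stand furthest to the left in both diet comparisons.

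Between the genotypes, 0 of the 7 factors passed on cuprizone, where 0.0397% of all genes (7 genes) passed and 24.9% had an unadjusted p under 0.05. Lhx6 and Zic1 were the 2 factors with an unadjusted p under 0.05 there, and DESeq2 called 1, Zic1. On the control diet 0 of 7 passed with edgeR or DESeq2, against 0.0% of all genes with edgeR and 1.44% at an unadjusted p under 0.05, reached by 1 factor, Lhx6. Gli1, the targeted gene, did not pass with edgeR there either. It was at 0.293 to 0.389 CPM in Gli1Null control and at 8.65 to 18.3 CPM in Gli1Het control libraries. The absence of calls between the genotypes therefore does not show equal levels. For the difference between the diet effects, 0 of 7 passed with edgeR or DESeq2, against 0.0% with edgeR and 9.03% at an unadjusted p under 0.05, reached by 1 factor, Isl1.

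Per kilobase of exon, which allows levels to be compared between genes, Gsx1 was first and Nkx6-2 second in every group. In Gli1Null cuprizone NSCs Gsx1 averaged 38.0 ± 0.92 CPM per kilobase, Nkx6-2 11.7 ± 1.59 and Nkx2-1 2.02 ± 0.64, followed by Zic1 at 1.04 ± 0.30, Emx1 at 0.244 ± 0.087 and Lhx6 at 0.0697 ± 0.019 (SD, n = 3). The libraries of these neighbours did not overlap, while Isl1, which followed, overlapped Gsx2. In Gli1Null control NSCs Gsx1 averaged 21.1 ± 0.57 CPM per kilobase and Nkx6-2 9.03 ± 2.91, and Zic1 at 3.29 ± 0.66, Lhx6 at 2.03 ± 1.16, Nkx2-1 at 1.55 ± 0.86, Emx1 at 0.436 ± 0.28 and Isl1 at 0.415 ± 0.16 followed, each overlapping the next (SD, n = 3). In Gli1Het cuprizone NSCs Gsx1 at 21.8 ± 14.8 overlapped Nkx6-2 at 8.70 ± 2.18, Zic1 at 2.42 ± 1.17 overlapped Nkx2-1 at 2.04 ± 0.87, and Emx1 at 0.284 ± 0.071 stood clear above Isl1, Lhx6 and Gsx2, which overlapped one another (SD, n = 3). In Gli1Het control NSCs Gsx1 at 19.7 ± 3.63, Nkx6-2 at 9.80 ± 0.23, Zic1 at 4.27 ± 0.19, Nkx2-1 at 1.64 ± 0.35 and Lhx6 at 0.944 ± 0.038 were each clear of the next, and Emx1 at 0.215 ± 0.17 overlapped both Isl1 at 0.265 ± 0.080 and Gsx2, which were clear of each other (SD, n = 3). Lhx6 was thus above Emx1 on the control diet in both genotypes and below it on cuprizone.

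**Figure D3:**
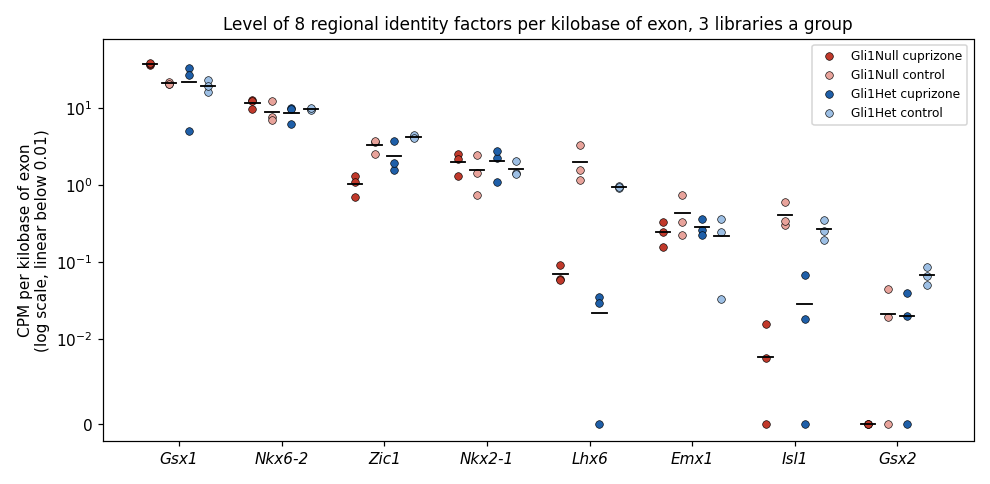
CPM per kilobase of exon (vertical, log scale, linear below 0.01) of 8 regional identity factors in the 4 groups; points are libraries and short lines group means. Gsx1 and Nkx6-2 lead in every group, and the mean of Lhx6 lies above that of Emx1 in the control groups and below it in the cuprizone groups.

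Of 12 other factors listed for the ventral and septal wall, 7 were tested. In Gli1Null NSCs 1 was lower on cuprizone (list median −0.67 on the log2 scale, all genes −0.02), where 0.25% of all genes were lower. In Gli1Het NSCs 2 were lower and 1 higher (list median −0.23, all genes 0.02), where 34.0% of all genes passed and 15.3% were lower. With the library labelled Gli1Het cuprizone replicate 2 left out, 2 were lower in Gli1Null, and 1 was lower and 0 higher in Gli1Het NSCs. Vax1, a ventral homeodomain factor of the optic stalk and basal forebrain, averaged 23.8 ± 1.47 CPM in Gli1Null cuprizone and 55.1 ± 10.5 CPM in Gli1Null control NSCs, and 13.3 ± 4.36 CPM in Gli1Het cuprizone and 42.5 ± 1.45 CPM in Gli1Het control NSCs (SD, n = 3). It fell in both genotypes, by 1.18 (SE 0.21, adjusted p = 0.0108, edgeR) in Gli1Null and by 1.69 (SE 0.21, adjusted p = 0.000622) in Gli1Het NSCs on the log2 scale. Zic4, the neighbour of Zic1 that shares exon bases with it, averaged 10.7 ± 5.11 CPM in Gli1Null cuprizone and 25.7 ± 6.27 CPM in Gli1Null control NSCs (log2 fold change −1.23, SE 0.33, adjusted p = 0.0634, edgeR). It averaged 18.1 ± 4.19 CPM in Gli1Het cuprizone and 34.0 ± 5.82 CPM in Gli1Het control NSCs, and fell there by 0.92 (SE 0.32, adjusted p = 0.0463). Without the library labelled Gli1Het cuprizone replicate 2, Zic4 passed in Gli1Null (−1.23, adjusted p = 0.0317) and not in Gli1Het NSCs (−0.88, adjusted p = 0.0937). Zic2 and Zic5 did not pass, with values of −1.14 and −0.31 in Gli1Null and of −0.36 and 0.01 in Gli1Het NSCs. Six3, an anterior forebrain factor, was at 1.06, 3.95 and 1.42 CPM in Gli1Het cuprizone NSCs and averaged 0.696 ± 0.18 CPM in Gli1Het control NSCs (SD, n = 3). Its log2 fold change of 1.61 (SE 0.48, adjusted p = 0.0260) was 0.80 (adjusted p = 0.177) without replicate 2, the library at 3.95 CPM, and then did not pass.

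**Figure D4:**
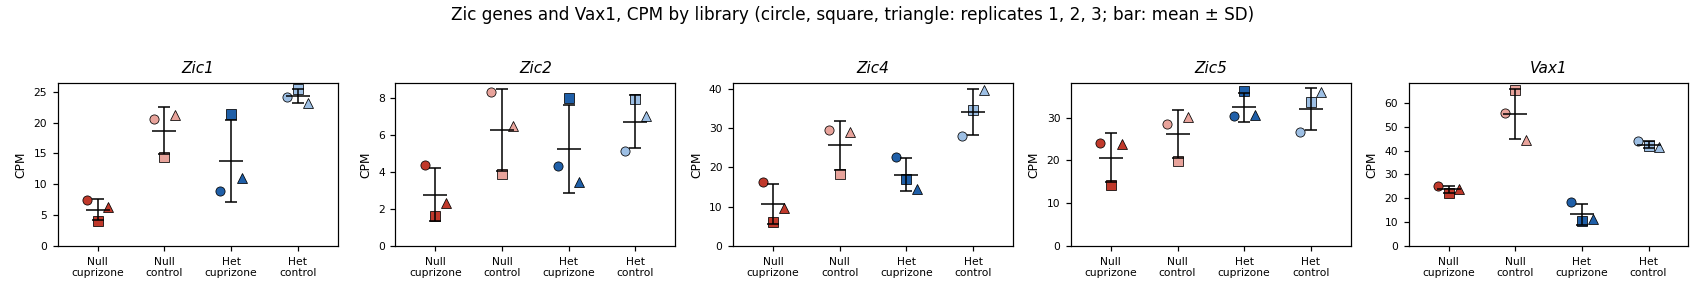
CPM of 4 Zic genes and Vax1 in each library; points are libraries (circle, square and triangle for replicates 1, 2 and 3) and bars the mean ± SD of 3 libraries. Vax1 lies lower on cuprizone in both genotypes, Zic1 and Zic4 lie lower with Zic1 of Gli1Het cuprizone replicate 2 close to its controls at 21.4 CPM, and Zic5 overlaps between the diets.

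Other factors of the lateral wall, which Gsx genes act above, fell in Gli1Het NSCs: 9 of 10 were lower on cuprizone (median −1.97), against 15.3% of all genes. In Gli1Null NSCs, where 0.25% of all genes were lower, 0 of the same 10 passed with edgeR (median −0.64). Without the library labelled Gli1Het cuprizone replicate 2, 9 of 10 were lower in Gli1Het NSCs (median −1.46, 12.3% of all genes) and 3 of 10 in Gli1Null NSCs (2.78% of all genes). The Gli1Het count was 3 to 9 with 1 library left out. Dlx2, which commits progenitors to a GABAergic fate, averaged 648 ± 28.9 CPM in Gli1Null cuprizone and 1026 ± 80.9 CPM in Gli1Null control NSCs (log2 fold change −0.63, SE 0.55, adjusted p = 0.571, edgeR). It averaged 288 ± 256 CPM in Gli1Het cuprizone and 1101 ± 174 CPM in Gli1Het control NSCs and fell by 1.95 there (SE 0.56, adjusted p = 0.0225), and by 1.45 (adjusted p = 0.00262) without replicate 2 of that group. Dlx1, Meis1 and Meis2 also fell in Gli1Het NSCs, Meis1 by 0.81 and Meis2 by 1.00. The dorsal list held 0 calls among 7 genes tested in either genotype, at medians of −0.85 in Gli1Null and −0.17 in Gli1Het NSCs. Log2 fold changes were below 0 for 5 of the 7 in Gli1Null and for 4 in Gli1Het NSCs. Pax6 had −0.26 and −0.17, and Emx2, the relative of Emx1, had 0.11 and 0.16 on the log2 scale in Gli1Null and Gli1Het NSCs. Without Gli1Het cuprizone replicate 1, 3 of the 7 dorsal genes were lower in Gli1Het NSCs, where 24.1% of all genes were lower.

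The list of LIM cofactors (Ldb, Lmo and Ssbp genes), set beside the LIM factors Lhx6 and Isl1, held 1 call with all libraries. Beside this list and the Hedgehog list below, 3.62% of all genes tested passed in either direction in Gli1Null and 34.0% in Gli1Het NSCs. Ssbp2 was the 1 of 8 that fell in Gli1Het NSCs, by 0.42 (SE 0.11, adjusted p = 0.0136, edgeR), and 0 of 8 passed in Gli1Null NSCs. Without the library labelled Gli1Het cuprizone replicate 2, Ssbp2 passed in Gli1Null NSCs (−0.33, adjusted p = 0.0463). In Gli1Het NSCs 2 were then lower (12.3% of all genes), Ssbp2 and Lmo3 (−1.01, adjusted p = 0.013). Without Gli1Het cuprizone replicate 1, 3 were lower and 1 higher in Gli1Het NSCs, where 24.1% of all genes were lower and 22.8% higher. Ldb1, the adaptor that joins LIM factors into complexes, had −0.07 in Gli1Null and −0.20 in Gli1Het NSCs. Of the Hedgehog pathway, upstream of ventral identity, 11 genes were tested. Smo, the signal transducer, and Hhip, a feedback inhibitor, rose on cuprizone in both genotypes: Smo by 0.78 (adjusted p = 0.0256) in Gli1Null and by 0.63 (adjusted p = 0.0150) in Gli1Het NSCs, and Hhip by 1.65 (adjusted p = 0.0254) and by 1.55 (adjusted p = 0.00804). In Gli1Het NSCs the ligand-binding proteins Boc and Gas1 and the factor Gli3 also rose, and Cdon, another ligand-binding protein, fell. Of the 11, 4 were higher in Gli1Null and 6 in Gli1Het NSCs (14.7% of all genes) without the library labelled Gli1Het cuprizone replicate 2. With 1 Gli1Null library left out, the Gli1Null count was 0 or 1. Shh itself was not among the genes tested.

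Summed levels of markers of other cell types differed between the diets beside Lhx6 and Isl1, and their part in those falls was not tested. The summed level of the 10 neuroblast markers was 2410 to 2572 CPM in Gli1Null cuprizone, against 3825 to 3907 CPM in Gli1Null control NSCs, with a median log2 fold change of −0.69 and 0 calls with edgeR. It was 541 to 2562 CPM in Gli1Het cuprizone, against 3297 to 4604 CPM in Gli1Het control NSCs, with a median of −1.83 and 8 of 10 lower. Over all genes tested, 0.25% were lower in Gli1Null and 15.3% in Gli1Het NSCs. Without the library labelled Gli1Het cuprizone replicate 2, all 10 were lower in Gli1Het NSCs (median −1.32, 12.3% of all genes) and 3 in Gli1Null NSCs, and with any 1 library left out the Gli1Het count was 2 to 10. By library, the neuroblast median was −0.63, −0.76 and −0.54 in Gli1Null cuprizone and −0.66, −4.33 and −2.12 in Gli1Het cuprizone NSCs, on the log2 scale and set against the average over the 6 control libraries. On the same scale Lhx6 was at −3.58, −4.11 and −4.13 in Gli1Null cuprizone and at −6.34, −4.72 and −4.86 in Gli1Het cuprizone NSCs. Isl1 was at −3.22, −4.09 and −3.60 in Gli1Null cuprizone and at −4.09, −1.98 and −3.17 in Gli1Het cuprizone NSCs. Gli1Het cuprizone replicate 1, which had the smallest neuroblast shift of its group, held 0 counts of Lhx6 and of Isl1, and in Gli1Null NSCs the shifts of Lhx6 and Isl1 were larger than the neuroblast median in each of the 3 libraries. In Gli1Het cuprizone replicate 2 the neuroblast shift was larger than that of Isl1 and close to that of Lhx6. With at most 14 counts of Lhx6 or Isl1 in a cuprizone library, the sizes of their shifts depend on the prior count of 2, which sets them at 0 counts. They are given as a description, and a relation to the neuroblast markers was not tested. None of the 10 neuroblast markers was at 0 over a whole group.

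Of the genes listed as markers of MGE interneurons, the neurons that Lhx6 helps to form, 13 of 14 were tested. Whether the listed genes are particular to these neurons here was not tested. In Gli1Null NSCs 0 passed with edgeR (median −0.22), and in Gli1Het NSCs Gad1, Erbb4 and Satb1 fell while Cxcr4 rose (median −0.25). Beside these and the neuron lists below, 3.62% of all genes tested passed in Gli1Null and 34.0% in Gli1Het NSCs, with 0.25% and 15.3% lower. Erbb4 (adjusted p = 0.0610) and Satb1 (adjusted p = 0.0612) did not pass without the library labelled Gli1Het cuprizone replicate 2, and the number lower was 0 to 6 with any 1 library left out. The summed level of the 14 listed genes was 564 to 583 CPM in Gli1Null cuprizone, against 729 to 819 CPM in Gli1Null control, and 264 to 622 CPM in Gli1Het cuprizone, against 759 to 829 CPM in Gli1Het control libraries. Much of this sum came from Gad1 and Gad2, at 248 and 208 of the 819 CPM in Gli1Null control replicate 2. Npy reached at most 2.41 CPM and Pvalb at most 1.01 CPM in any library. The sum is thus not a measure of MGE interneurons alone. Sst, the somatostatin gene that marks one class of these neurons, was near the limit of detection in every group. It had 0 counts in Gli1Null cuprizone NSCs, which allows up to 0.0326 CPM, against 1, 3 and 7 counts in Gli1Null control NSCs. It had 0, 1 and 0 counts in Gli1Het cuprizone, against 0, 0 and 2 counts in Gli1Het control NSCs. Of 5 cholinergic neuron markers with counts, 2 were tested and 0 passed with edgeR in either genotype, and the 5 summed to 2.03 to 2.64 CPM in Gli1Null cuprizone, against 2.37 to 4.21 CPM in Gli1Null control, and to 2.46 to 4.20 CPM in Gli1Het cuprizone, against 1.82 to 3.02 CPM in Gli1Het control NSCs. Striatal projection neuron markers held 0 calls of 12 in Gli1Null NSCs (median −0.18) and 2 lower and 1 higher in Gli1Het NSCs (median −0.42), Bcl11b falling by 2.17 (adjusted p = 0.0174), and by 1.66 (adjusted p = 0.00585) without replicate 2 of the Gli1Het cuprizone group, when 1 was lower. Of 7 mature neuron markers tested, 0 passed in Gli1Null (median −0.35) and 2 were lower in Gli1Het NSCs (median −0.47).

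The sums of ependymal and oligodendrocyte progenitor markers were higher in every cuprizone library than in every control library of its genotype, but not every marker rose. Log2 fold changes were below 0 for 3 of 7 ependymal markers in Gli1Null and 2 in Gli1Het NSCs, and for 1 of 6 progenitor markers in each genotype. Without the library labelled Gli1Het cuprizone replicate 2, the progenitor marker Pdgfra was lower in Gli1Null (−1.91, adjusted p = 0.013, edgeR) and in Gli1Het NSCs (−2.78, adjusted p = 0.00325). The 7 ependymal markers summed to 114 to 125 CPM in Gli1Null cuprizone, against 62.7 to 70.6 CPM in Gli1Null control (1 higher), and to 187.5 to 507 CPM in Gli1Het cuprizone, against 42.8 to 95.4 CPM in Gli1Het control NSCs (4 higher). The 6 markers of oligodendrocyte progenitors summed to 182 to 210.4 CPM in Gli1Null cuprizone, against 71.2 to 97.1 CPM in Gli1Null control (2 higher), and to 230.5 to 464 CPM in Gli1Het cuprizone, against 67.3 to 105 CPM in Gli1Het control NSCs (3 higher). Of 13 microglia markers tested, 0 passed in Gli1Null with edgeR and 6 were higher in Gli1Het NSCs, at sums of 44.1 to 102.5 CPM in Gli1Het cuprizone and 22.6 to 36.3 CPM in Gli1Het control. The counts of these lists stand beside 3.62% of all genes tested that passed in either direction in Gli1Null and 34.0% in Gli1Het NSCs. Of 8 mature oligodendrocyte markers, 0 passed in Gli1Null with edgeR, and 2 were lower and 1 higher in Gli1Het NSCs. Ependymal markers called higher in Gli1Null NSCs were 2 without the library labelled Gli1Het cuprizone replicate 2. None of these markers was at 0 over a whole group.

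**Figure D5:**
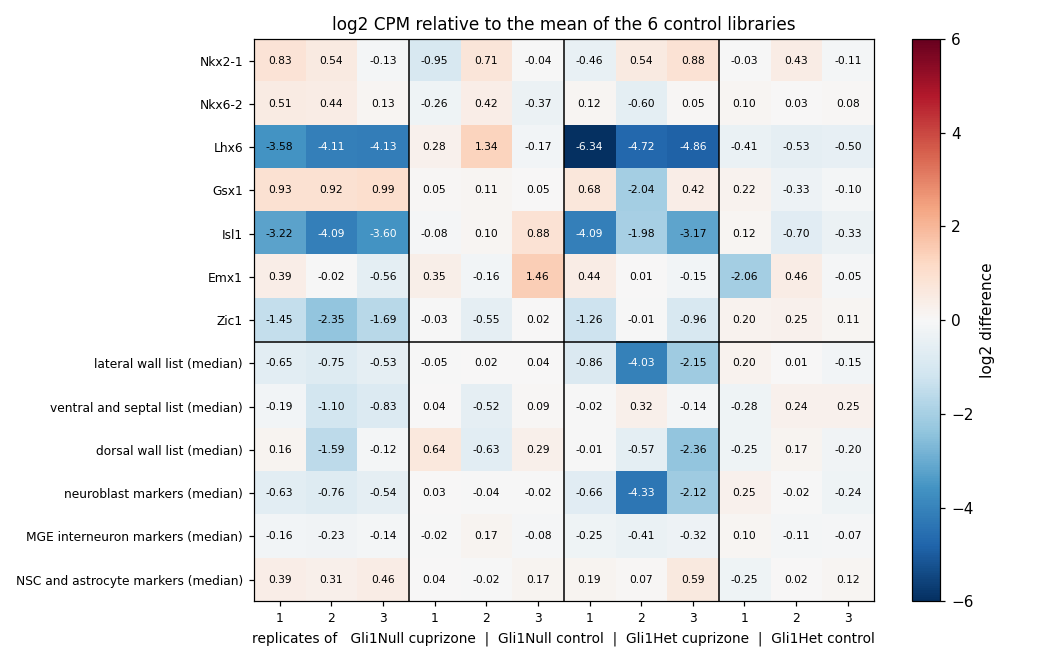
log2 CPM of the 7 factors tested, and medians of 6 gene lists, in each library, set against the average over the 6 control libraries (colour and printed value; prior count 2); columns are replicates 1 to 3 of each group. Lhx6 is at −3.58 or lower in every cuprizone library, while the neuroblast median is between −0.54 and −0.76 in the Gli1Null cuprizone libraries and reaches −4.33 in Gli1Het cuprizone replicate 2.

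The genes whose log2 levels followed each factor most closely over the 12 libraries are given as a description; the libraries share diets and genotypes, so any gene that moves with the diet scores highly. For Lhx6 they were Gm16253, Lpcat1 and Rabl3 (Pearson r = 0.945, 0.945 and 0.942), and for Isl1 Stard4, Fam131a and Gm17096 (0.967, 0.958 and 0.954). Stard4, a cholesterol transport protein, averaged 6.59 CPM in Gli1Null cuprizone and 14.7 CPM in Gli1Null control, and 8.61 CPM in Gli1Het cuprizone and 13.8 CPM in Gli1Het control NSCs. For Zic1 they were Vmn1r-ps128, Wdr5b and again Fam131a (0.947, 0.932 and 0.920). For Gsx1 they were Lonrf2, Slc25a23 and Jag1 (0.964, 0.958 and 0.948). Jag1, a Notch ligand, averaged 72.3 CPM in Gli1Null cuprizone and 49.7 CPM in Gli1Null control, and 50.7 CPM in Gli1Het cuprizone and 46.8 CPM in Gli1Het control NSCs. The closest gene was Slc38a2 for Nkx6-2 (0.888), Spryd7 for Nkx2-1 (0.925) and the unnamed gene ENSMUSG00000092028 for Emx1 (0.836), each over n = 12 libraries.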

How the data were processed

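Libraries were grouped by genotype and diet from the sample labels, with 3 libraries a group. The authors, per the labels and their methods, ran FastQC 0.11.5 on the reads, TopHat2 2.1.1 for alignment to mm10, HTSeq 0.11.1 for counts per Ensembl gene and DESeq2 1.12 for their comparisons. The Ensembl release and the strand option were not given in the sources used here, and the kit does not mark strand, so a gene and an antisense gene over it cannot be told apart. The authors deposited read counts per gene, unnormalized, which were used here, and a signal in which each library's counts are divided by its size factor. With that factor undone, 100% of the signal values equal the count within 0.01, and edgeR on them called 5997 and 638 genes for the diet in Gli1Het and Gli1Null NSCs, as the counts did. Reads outside genes (54.5 to 58.4% of uniquely aligned reads) were left out.

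Counts were tested with edgeR 4.0.16 (R 4.3.3), quasi-likelihood F test, TMM scaling, filterByExpr with a minimum count of 10 (at least 0.361 CPM in 3 libraries), in 1 model of the 4 groups, with Benjamini-Hochberg adjustment over 17623 genes and a threshold of 0.05; SE is the log2 fold change over the root of F. CPM are counts over the library's total in genes. Counting intervals are exact 95% Poisson or binomial intervals and, like floors of 3 counts, cover counting error only. Depth was 13752801 to 32468063 counts. Exon lengths and overlaps came from GENCODE M21 and promoters from RefSeq. The test was checked on simulated counts in which genes were only raised and each gene had the same spread in every group. That check does not cover falls to nearly no counts or the unequal spread of these groups. The alternatives were DESeq2 1.42.0, its size factors, no filter, groups alone, a replicate block, a term for sample numbers under 10 and leaving out each library. That term marked replicates 2 and 3 of both Gli1Het groups and no Gli1Null library, so it cannot be fully separated from genotype. The test on the signal and the list counts with a library left out were added after seeing the data. The members and gene lists were chosen with earlier results of these data known. Named were the 9 factors, Gli1, of each list up to 3 called genes of smallest adjusted p and 2 of highest level, and for each factor the 3 genes with the highest correlation of log2 CPM (prior count 2) above a mean of 1 CPM; a few other list genes (such as Zic2, Ldb1, Gli3, Cdon and Sst) were named after their values were seen, and some list genes are not reported here.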

Additional observations from a re-analysis of the deposited data

How the results depend on the processing

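Under up to 19 alternatives (with the cuprizone groups alone, Lhx6 and Isl1 were under the filter and gave no genotype value, and the difference between diet effects needs all groups), 620 values of the 7 factors kept their direction and their side of the threshold, 9 newly passed, 6 no longer passed and 21 changed sign. Among the 19 was the test on the signal with its size factor undone. That signal equals the counts, so its agreement was fixed in advance and adds no evidence of stability. Lhx6 was called lower on cuprizone in all 19 in both genotypes and Isl1 in all 19 in Gli1Null and 18 of 19 in Gli1Het NSCs. The number of factors called was 1 for Gli1Het NSCs on cuprizone with the groups alone, and 1 for Gli1Null over Gli1Het on cuprizone with DESeq2; leaving out 1 library gave 2 to 4 (Gli1Het diet), 2 to 4 (Gli1Null diet) and 0 to 1 (genotype on cuprizone). Zic1 on cuprizone in Gli1Het NSCs passed with no filter (adjusted p = 0.0482), DESeq2 (0.0320) and the sample-number term (0.0446).

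Counts over all genes moved more. The Gli1Het diet count (5997) was 961 with the groups alone and 3173 to 8496 with 1 library left out. The Gli1Null diet count (638) was 1318 with DESeq2, 4195 alone, 1124 with the sample-number term, and 140 to 1888 with 1 library left out. The genotype count on cuprizone (7) was 469 with no filter, 1732 with DESeq2, 1 alone, 0 with the sample-number term, and 0 to 5087 with 1 library left out. The genotype count on the control diet (0) was 1 with DESeq2 and alone and 0 to 1 with 1 library left out, and that of the difference (0) was 60 with DESeq2, 1 with the sample-number term and 0 to 1714 with 1 library left out. The causes were not tested.

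Libraries with the same replicate number did not deviate together (correlations of −0.118 to 0.12), so the numbers were not taken as pairs. The replicate block gave 400 calls for the Gli1Null diet and 1 for the genotype on cuprizone; it changed no call of a factor.

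No value that changed sign was called with all libraries; Gsx1 in Gli1Het NSCs was called at 0.61. With the sample-number term, which marks Gli1Het libraries only, Emx1 for the genotype on cuprizone was 0.20, and on the control diet Nkx2-1 was 0.40 and Gsx1 −0.37. With 1 library left out, the Gli1Het diet values ranged over −0.0022 to 0.57 (Nkx2-1), −0.35 to 0.014 (Nkx6-2), −0.34 to 0.61 (Gsx1) and −0.14 to 0.83 (Emx1); the genotype values on cuprizone over −0.22 to 0.36 (Nkx2-1) and −0.425 to 0.11 (Emx1), and on the control diet over −0.56 to 0.27 (Nkx2-1), −0.40 to 0.042 (Nkx6-2) and −0.0055 to 0.27 (Gsx1); and the difference for Nkx2-1 over −0.19 to 0.63. Depth limits Gsx2, Isl1 and Lhx6 on cuprizone, where a library held at most 14 counts.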
